A study of Homo sapiens with 12 samples.

Results

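Histone genes were followed across 12 arrays of H929, an established multiple myeloma cell line. The members were all genes with a probe set of their own whose symbol starts with H1-, H2A, H2B, H3C, H3- or H4C, which gave 59 of the 19775 genes on the array with such a probe set. A gene with several probe sets was read from the one with the highest mean over the 12 arrays, and the others were kept as a check. By symbol, 39 genes were clustered core histone genes (a C and a number, as in H2AC6) and 20 were other histone genes. The 39 include 2 pseudogenes, H2AC5P and H4C10P. The 20 include the linker genes H1-1 to H1-6, which lie in the chromosome 6 cluster without a C in their symbols, the pseudogenes H1-9P and H2BW4P, and the antisense RNA H1-10-AS1.

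Each of the 4 groups holds 3 arrays. In the hairpin arm, cells were infected with a short hairpin RNA against GFP (shGFP, the control) or against BCL9 (shBCL9), a coactivator of beta-catenin in Wnt signalling, and the GFP-positive cells were sorted by flow cytometry. In the microRNA arm, cells were transfected with cel-miR-67, a worm microRNA used as the control, or with miR-30, for which the labels name the family members a, b, c, d and e and leave unsaid whether a culture received all of them. All 4 groups are H929 cells with no further treatment named. Nothing in the labels ties the 3 arrays of a group to separate cultures, and the p-values therefore measure a spread between arrays that may be technical.

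Core histones H2A, H2B, H3 and H4 form the octamer that DNA wraps around, and H1 binds the linker DNA between octamers. The clustered genes are transcribed mainly in S phase, and most of their mRNA ends in a stem-loop bound by SLBP in place of a poly(A) tail, although several of these genes also give polyadenylated forms. H1-1 to H1-5 share the stem-loop end. Some of the remaining genes encode variants that are made throughout the cell cycle from ordinary polyadenylated mRNA, such as H2AZ at promoters and H3.3 at transcribed chromatin. The remaining genes also include pseudogenes, an antisense RNA and the oocyte linker histone, so they are not a class of such variants alone. H2AX, which acts in DNA repair, gives both a stem-loop and a polyadenylated mRNA. The labelling kit used here starts cDNA at poly(A), so for a stem-loop gene the array reads mainly whatever polyadenylated RNA the gene gives.

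Many promoters of the clustered genes hold the same short sequence elements, and 4 histone promoters are shown. The first 3 belong to the genes with the largest differences below and the last to a variant gene that did not change. Each runs 5′ to 3′ on the gene's own strand, from 250 bases before the RefSeq start to 50 bases after it, in build GRCh38.p14. Capitals mark CCAAT (the CCAAT box), TATAAA (the TATA box) and TTTGCAT (the core of the octamer element), each searched on both strands.
H2AC6, chr6:26123922-26124221, plus strand: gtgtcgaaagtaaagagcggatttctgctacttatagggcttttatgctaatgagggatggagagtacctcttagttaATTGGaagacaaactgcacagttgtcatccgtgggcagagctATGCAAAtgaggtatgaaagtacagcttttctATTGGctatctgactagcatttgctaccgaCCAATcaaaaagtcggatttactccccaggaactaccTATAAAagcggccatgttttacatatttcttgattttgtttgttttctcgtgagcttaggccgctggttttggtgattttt
H2BC21, chr1:149886633-149886932, minus strand: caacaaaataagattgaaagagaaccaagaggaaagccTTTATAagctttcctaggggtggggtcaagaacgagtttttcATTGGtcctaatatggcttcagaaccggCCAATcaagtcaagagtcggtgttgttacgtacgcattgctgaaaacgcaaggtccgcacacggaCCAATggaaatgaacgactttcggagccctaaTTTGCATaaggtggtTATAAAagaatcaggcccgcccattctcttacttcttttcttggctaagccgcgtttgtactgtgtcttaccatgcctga
H1-2, chr6:26056421-26056720, minus strand: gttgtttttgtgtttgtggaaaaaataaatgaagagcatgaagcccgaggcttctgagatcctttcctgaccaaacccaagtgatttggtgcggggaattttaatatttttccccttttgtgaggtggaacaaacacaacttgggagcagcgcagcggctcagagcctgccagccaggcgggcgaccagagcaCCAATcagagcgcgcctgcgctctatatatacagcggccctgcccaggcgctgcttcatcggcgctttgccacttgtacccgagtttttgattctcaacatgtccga
H2AZ1, chr4:99950226-99950525, minus strand: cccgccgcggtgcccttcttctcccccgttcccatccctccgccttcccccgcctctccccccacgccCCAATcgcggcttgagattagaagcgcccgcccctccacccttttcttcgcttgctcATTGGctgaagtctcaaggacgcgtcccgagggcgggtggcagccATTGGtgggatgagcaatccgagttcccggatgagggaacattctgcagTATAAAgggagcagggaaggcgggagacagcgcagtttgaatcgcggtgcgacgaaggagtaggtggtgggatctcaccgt
In H2AC6, H2BC21 and H2AZ1 a TATA box began 30 or 31 bases before the start. An octamer core lay 130 bases before the start of H2AC6 and 45 bases before that of H2BC21. H1-2 held a CCAAT box 57 bases upstream and neither other motif, and H4C8, another strongly changed gene, held none of these letters in its window.

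Promoters were found for 51 of the 54 coding members. Among the 34 clustered genes with a promoter, 85.3% held CCAAT, 70.6% TATAAA and 47.1% TTTGCAT, against 35.7%, 12% and 4.51% of all 27305 promoters of the same length. The octamer core was found in 75% of the 8 H2A promoters and 76.9% of the 13 H2B promoters, and in none of the 6 H3, 7 H4, 6 H1-1 to H1-6 or 11 remaining histone promoters. Of those 11, 90.9% held CCAAT and 45.5% TATAAA. Among the 7 clustered H4 promoters 28.6% held CCAAT, which is below the share of all promoters. H2A and H2B genes often stand head to head. H2AC6 and H2BC4 start 246 bases apart on opposite strands, so the window of one reaches into that of the other.

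Values are log2 intensities from RMA, and the medians of the arrays lay between 5.46 and 5.53. Of the 59 members, 38 passed the filter on dim genes, which asked for a level above the 40th percentile of the array (4.86 to 4.95) in at least 3 arrays. They comprised 25 clustered and 13 other genes, of 14725 genes tested in all. A gene is called where limma's adjusted p was under 0.05. Where a tested gene or its difference is said below not to pass, it was not called. BCL9 itself, on its single probe set, read 7.88, 7.90 and 7.88 with shGFP and 7.73, 7.61 and 7.85 with shBCL9, a difference of -0.15 with an adjusted p of 0.0874. In the microRNA arm it read 7.82, 7.86 and 7.79 with cel-miR-67 and 7.99, 8.05 and 7.83 with miR-30, and these overlapping groups differed by 0.14 (adjusted p = 0.269). All 10 plasma cell markers looked for passed the filter, among them the defining SDC1, CD38 and TNFRSF17. Of other marker lists, the B cell one had 6 of 8 members above it and the T and NK cell one 4 of 9. The myeloid one had 2 of 6, and the stromal and epithelial one 5 of 10. Only markers with a probe set of their own were counted. Over the whole array, 14725 of 19775 genes passed the filter.

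With shBCL9, clustered histone genes were lower than with shGFP. Of the 25 tested, 16 fell and 1 rose, where 22.9% of all genes tested fell and 18.7% rose. The fall passed 2-fold for H2AC6, H2BC21, H2BC5 and H4C8. Of the 13 other genes, 3 fell and 3 rose, counts that are near those shares. The median difference was -0.29 over the clustered genes that passed the filter and -0.12 over all 39 clustered genes. Over all genes tested it was 0.03. In a bulk extract, fewer cells carrying a transcript and less of it per cell cannot be told apart.

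**Figure D1:**
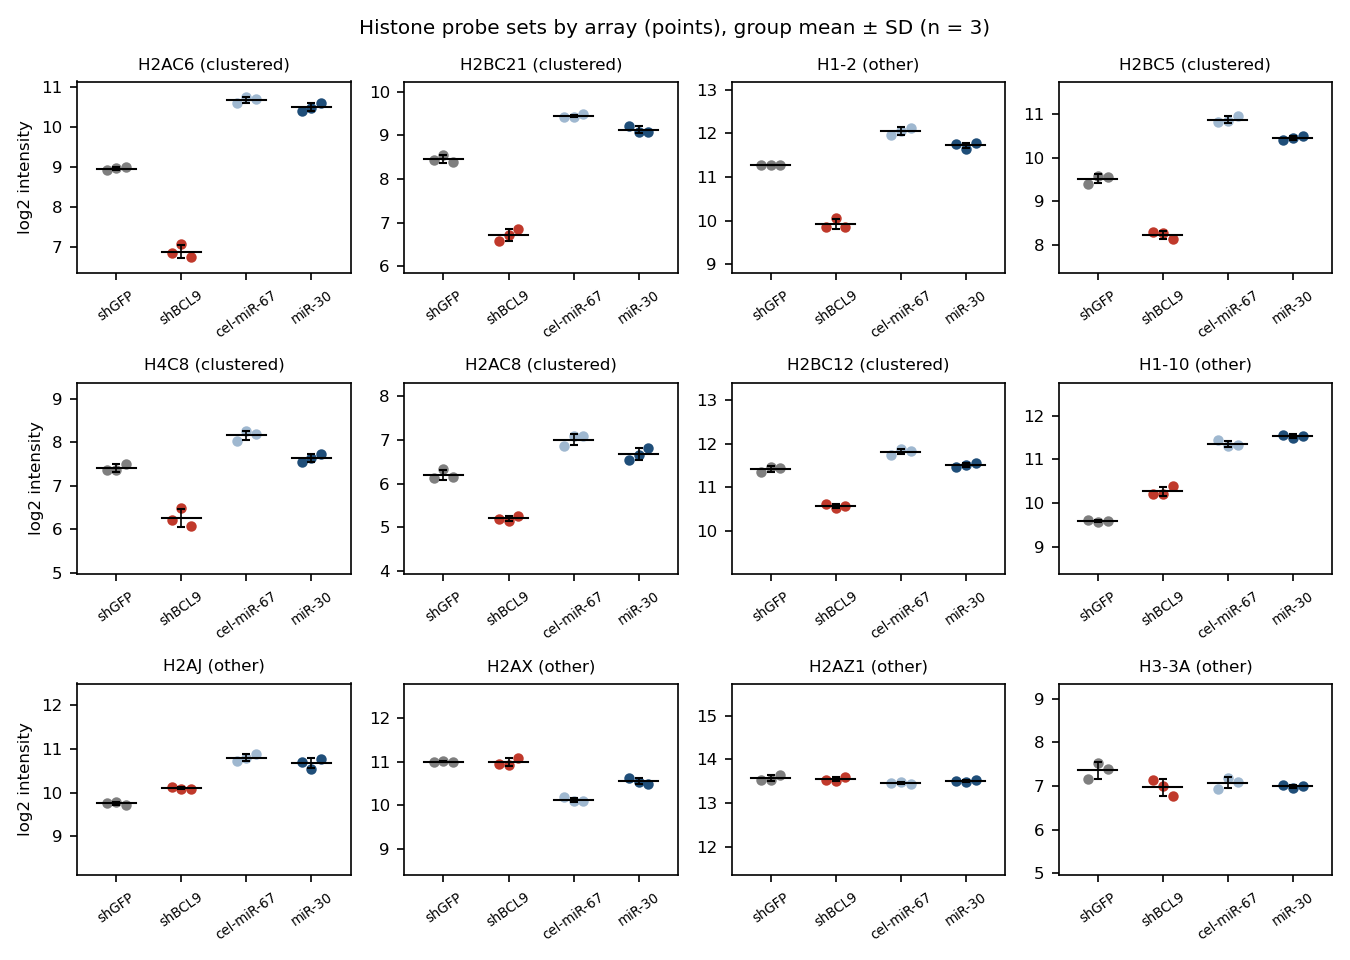
Log2 intensity of 12 histone genes (vertical axes, each with its own range) in the 4 groups, with a point per array, a bar at the group mean and whiskers of 1 SD (n = 3). H2AC6, H2BC21, H1-2 and H2BC5 have their lowest mean with shBCL9 and their highest with cel-miR-67, H1-10 and H2AJ are lowest with shGFP, and H2AZ1 lies between 13.44 and 13.64 throughout.

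Among the H2A genes, H2AC6 showed the largest change of all 38. H2AC6 read 8.92, 8.98 and 8.99 with shGFP and 6.85, 7.06 and 6.73 with shBCL9. All arrays of one group lay below all of the other, and the difference was -2.08 (SE 0.08, adjusted p = 1.38e-09), a 4.24-fold lower intensity. H2AC8, another canonical H2A gene, read 6.13, 6.33 and 6.15 against 5.20, 5.15 and 5.27, a difference of -0.996 (SE 0.09). H2AC17 fell by 0.76, H2AC15 by 0.29 and H2AC25 by 0.26. The call of H2AC15, a dim gene, was lost in 5 of the alternatives tried. H2AC4 was the clustered gene that rose, by 0.24 (SE 0.07, adjusted p = 0.0152). H2AC14 differed by -0.27 and the pseudogene H2AC5P by -0.06, and neither passed.

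The H2B genes moved most evenly, with 8 of 10 lower and none higher. H2BC21, on chromosome 1 and known to give polyadenylated mRNA, read 8.44, 8.56 and 8.39 with shGFP and 6.59, 6.71 and 6.86 with shBCL9. The groups did not overlap, and the difference was -1.74 (SE 0.07, adjusted p = 2.87e-09), or 3.35-fold. H2BC5 read 9.41, 9.59 and 9.57 against 8.30, 8.27 and 8.13, a difference of -1.29 (SE 0.07). H2BC12 read 11.35, 11.47 and 11.45 against 10.62, 10.54 and 10.59, a difference of -0.84 (SE 0.05). In both genes the groups were apart by far more than the spread within them. H2BC12L on chromosome 21 fell by 0.94, H2BC9 by 0.88, H2BC6 by 0.84, H2BC4 by 0.59 and H2BC3 by 0.25. H2BC11 (-0.20) and H2BC15 (-0.11) did not pass. The H2BC3 arrays overlapped between the groups, and its call was lost, with the sign kept, in 7 of the alternatives tried. H2B genes are near-identical in their coding part. The probe sets of H2BC21, H2BC5, H2BC6, H2BC9 and H2BC12L carry a suffix of sets that can bind paralogs, as do those of H2AC6, H2AC14, H3C8 and H4C11. Among the other genes, those of H1-10, H2AJ, H2AX, H2AZ1, H2AZ2 and H3-3A carry it too. The separate values of all these genes are uncertain.

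Fewer H3 and H4 genes passed the filter. H4C8 read 7.35, 7.37 and 7.502 with shGFP and 6.21, 6.498 and 6.09 with shBCL9, without overlap and with a difference of -1.14 (SE 0.10, adjusted p = 1.43e-06). H4C11 fell by 0.43, and H4C5 (0.03) and H4C9 (0.16) did not pass. Of the 3 H3 genes, H3C8 fell by 0.18 (SE 0.05), and H3C3 (-0.08) and H3C6 (-0.05) did not pass. The call of H3C8 was lost, with the sign kept, in 6 of the alternatives tried.

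**Figure D2:**
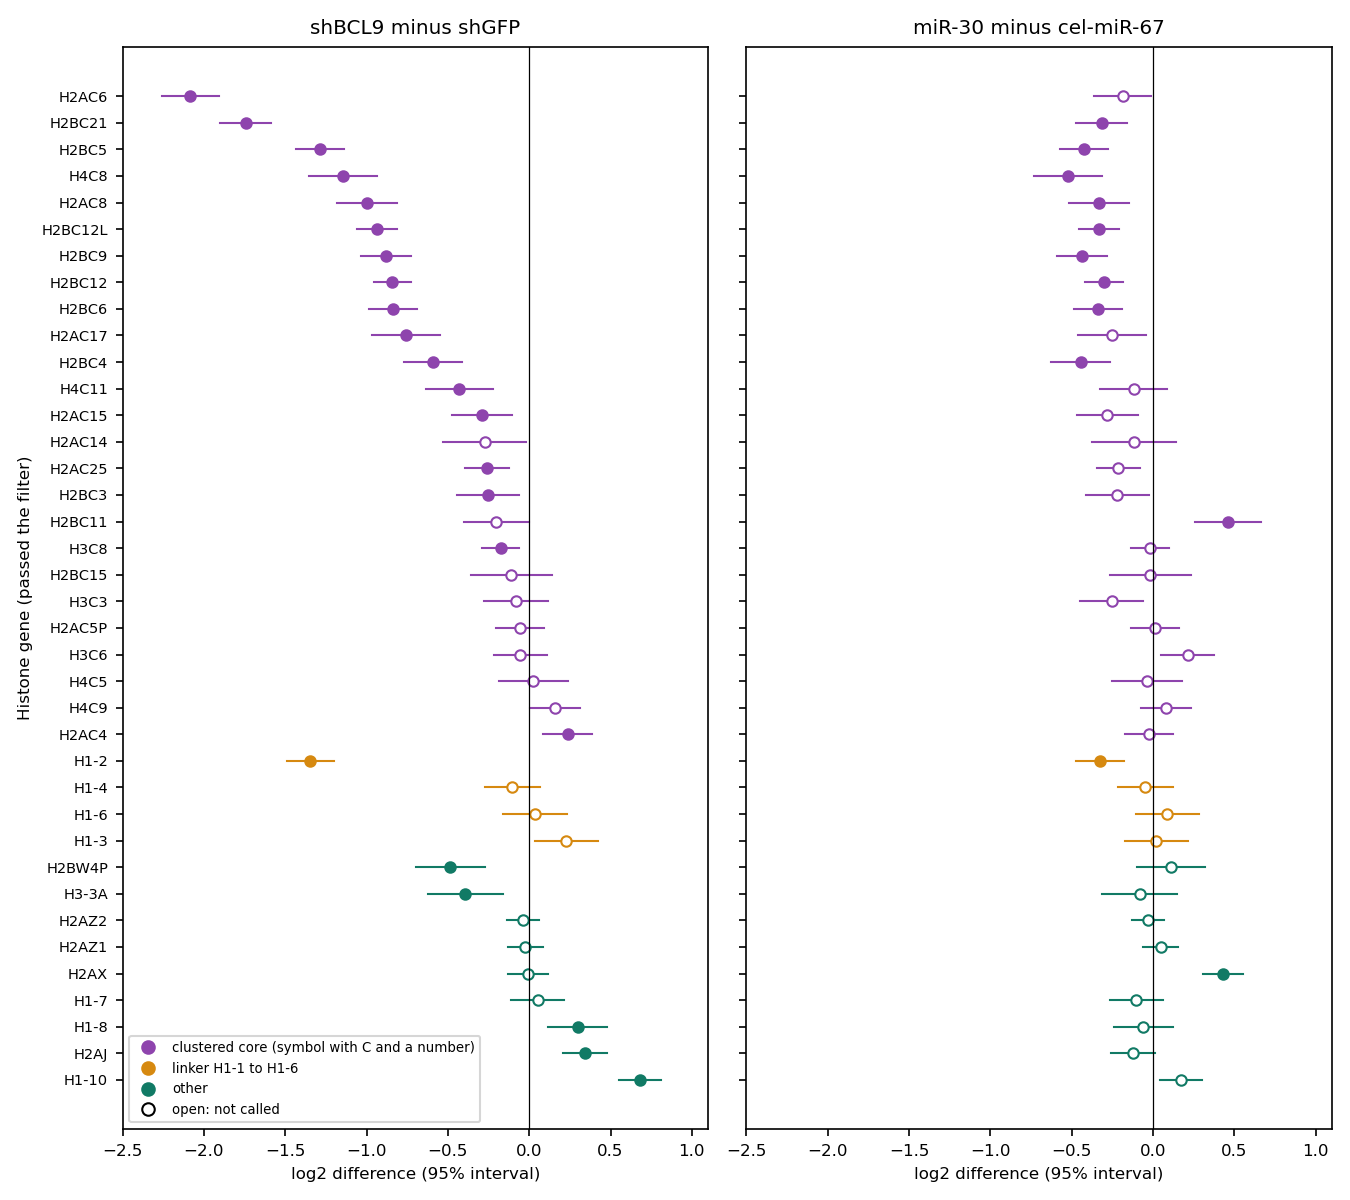
Log2 difference (horizontal axes) of the 38 histone genes that passed the filter, shBCL9 minus shGFP on the left and miR-30 minus cel-miR-67 on the right, with 95% intervals; filled points are called, open points are not, and colours give the class. On the left 16 of 25 clustered genes are called below 0, down to -2.08 for H2AC6, and on the right 9 of 25, down to -0.52 for H4C8.

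Linker histones split. H1-2, a main linker subtype of dividing cells, read 11.27 in each shGFP array and 9.86, 10.07 and 9.84 with shBCL9, a difference of -1.35 (SE 0.07, adjusted p = 1.34e-08). H1-10, a replication-independent linker histone on chromosome 3, moved the other way, reading 9.61, 9.55 and 9.58 against 10.21, 10.20 and 10.38. The difference was 0.68 (SE 0.06, adjusted p = 2.06e-06), and the groups did not overlap. H1-8, the oocyte linker histone, rose by 0.30 (SE 0.08) at a level of 5.41 to 5.86. H1-3 (0.23, adjusted p = 0.0582), H1-4 (-0.10), H1-6 (0.04) and H1-7 (0.05) did not pass.

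Among variant core histones, H2AJ rose, H3-3A fell, and H2AZ1, H2AZ2 and H2AX did not pass on their brightest probe sets. H2AZ1, the main H2A.Z gene, read 13.52, 13.54 and 13.64 with shGFP and 13.54, 13.50 and 13.59 with shBCL9, so the groups overlapped, and the difference was -0.02 with a 95% interval from -0.13 to 0.08. H2AZ2, the second H2A.Z gene, differed by -0.04 on its brightest probe set, which was not called. Its further sets were called higher in the fit over probe sets, at 0.25, 0.22 and 0.17. H2AX read 10.98, 11.02 and 11.00 against 10.95, 10.92 and 11.09, a difference of -0.01 that did not pass. H2AJ, a replication-independent H2A variant, rose by 0.34 (SE 0.06), from 9.77, 9.78 and 9.71 to 10.12, 10.09 and 10.08, with no overlap. H3-3A, which encodes H3.3, fell by 0.39 (SE 0.11, adjusted p = 0.0104), and its arrays read 7.16, 7.54 and 7.39 against 7.14, 7.01 and 6.76. That is the only probe set of its own, and the brightest sets that it shares with H3-3B were not called. The pseudogene H2BW4P fell by 0.48.

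RNA measures moved with the same groups. The difference between the 3' and 5' probe sets of ACTB was 1.67 ± 0.08 with shBCL9 and 1.30 ± 0.11 with shGFP (SD, n = 3). The mean of the 18S ribosomal RNA probe sets was 13.23 ± 0.02 against 12.38 ± 0.07. That of the poly-A spike-ins was 6.48 ± 0.48 against 7.15 ± 0.17, and that of the hybridisation spike-ins 11.23 ± 0.07 against 11.45 ± 0.09. GAPDH 3' minus 5' was 0.13 ± 0.02 against 0.14 ± 0.02. For ACTB, 18S and both kinds of spike-in the groups were apart in every array, and the exact, two-sided permutation test gave 0.1, the smallest p that 3 against 3 arrays allow. With the 18S level as a covariate no histone gene was called in limma, 8 of 38 kept an unadjusted p under 0.05, and 11 of all genes tested were called in place of 6118. H2AC6 then differed by -1.85 (SE 0.63 in place of 0.08), H2AC17 by 0.11 in place of -0.76, and the clustered median was -0.77. With the ACTB difference as a covariate 16 histone genes were called (clustered median -0.47), and with the poly-A spike-ins 14, in place of 23. Over all genes tested the calls fell as well, from 6118 to 2967 and 3165. The part of these measures in the histone differences was not tested further. Leaving out an array or dim genes moved the clustered median by more than 1.5 times: it was -0.44 without shBCL9 replicate 2 and -0.86 over the 14 clustered genes above the 60th percentile.

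With miR-30, the histone genes that changed were mostly clustered genes and mostly lower. Of the 25 clustered genes, 9 fell, where 2.63% of all genes tested fell. The 1 clustered gene called higher, H2BC11, entered the test only through its miR-30 arrays, and 2.34% of all genes tested rose. One other histone gene fell, H1-2, and one rose, H2AX. The clustered median was -0.22 among those that passed the filter and -0.12 among all 39, against -0.02 for all genes tested. No arrays are shared with the hairpin comparison.

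H4C8 showed the largest fall, from 8.04, 8.25 and 8.19 with cel-miR-67 to 7.54, 7.64 and 7.73 with miR-30, a difference of -0.52 (SE 0.10, adjusted p = 0.00974). No miR-30 array reached a control array. Among the H2B genes 7 of 10 fell: H2BC4 by 0.45, H2BC9 by 0.44, H2BC5 by 0.43, H2BC6 by 0.34, H2BC12L by 0.33, H2BC21 by 0.31 and H2BC12 by 0.30. H2BC5 read 10.81, 10.85 and 10.96 against 10.40, 10.45 and 10.50, and H2BC12 read 11.75, 11.87 and 11.83 against 11.47, 11.51 and 11.57. Both were lower in every miR-30 array than in any control array.

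H2AC8 was the single H2A gene called, at -0.33 (SE 0.09, adjusted p = 0.043). H2AC6, which led in the hairpin arm, read 10.60, 10.75 and 10.72 against 10.42, 10.48 and 10.61. These arrays overlapped, and the difference of -0.19 (SE 0.08) did not pass (adjusted p = 0.207). No H3 gene was called, with H3C3 at -0.26, H3C6 at 0.21 and H3C8 at -0.02.

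H1-2 fell by 0.33 (SE 0.07, adjusted p = 0.0166), from 11.96, 12.05 and 12.13 to 11.75, 11.65 and 11.77. H2BC11, a dim gene, read 4.45, 4.73 and 4.64 with cel-miR-67 and 5.01, 5.09 and 5.09 with miR-30, a difference of 0.46 (SE 0.09). It passed the filter through its miR-30 arrays alone, so its call had to be on the higher side and is given as a description. H2AX, the variant phosphorylated at DNA breaks, rose from 10.18, 10.09 and 10.09 to 10.63, 10.52 and 10.50, a difference of 0.43 (SE 0.06, adjusted p = 0.00143), on its brightest probe set, while its other 3 sets did not pass. H2AZ1 differed by 0.05, H2AZ2 by -0.03, H3-3A by -0.08, H2AJ by -0.12 and H1-10 by 0.17, and none of these passed. The 12 calls rested on single arrays in part, since 7 histone genes were called without cel-miR-67 replicate 2 and also without miR-30 replicate 2. Among the alternatives tried, the call was lost in 14 for H2AC8, in 8 for H2BC21 and in 5 each for H1-2 and H2BC6.

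The RNA measures differed less in this arm. The mean of the 18S probe sets was 12.64 ± 0.04 with miR-30 and 12.50 ± 0.05 with cel-miR-67 (exact, two-sided permutation p = 0.1). The ACTB difference was 2.07 ± 0.01 against 2.16 ± 0.09 (exact permutation p = 0.4). With 18S as a covariate 1 histone gene was called in limma and 16 had an unadjusted p under 0.05, while the clustered median stayed at -0.19. With the ACTB difference or the poly-A spike-ins as a covariate 11 were called.

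The arms were compared directly by the miR-30 effect minus the shBCL9 effect in limma. This difference was called for 17 of the 38 histone genes and for 26.3% of all genes tested. It was positive for 14, of which 11 were clustered (H2BC11, selected by its miR-30 arrays, among them), and negative for 3. H2AC6 differed most between the arms, by 1.90 (SE 0.11, adjusted p = 2.29e-07), then H2BC21 by 1.43 and H1-2 by 1.02. For H2BC4 the arms differed by 0.15 (95% interval -0.11 to 0.40) and for H2AC15 by 0.01 (-0.26 to 0.27), and neither passed. H1-8 (-0.36) lost its call under 16 of the alternatives tried. H2AX (0.44) and H1-10 (-0.51) were called with opposite signs of this difference. With 18S as a covariate none of the 38 was called in limma, and 6 had an unadjusted p under 0.05.

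**Figure D3:**
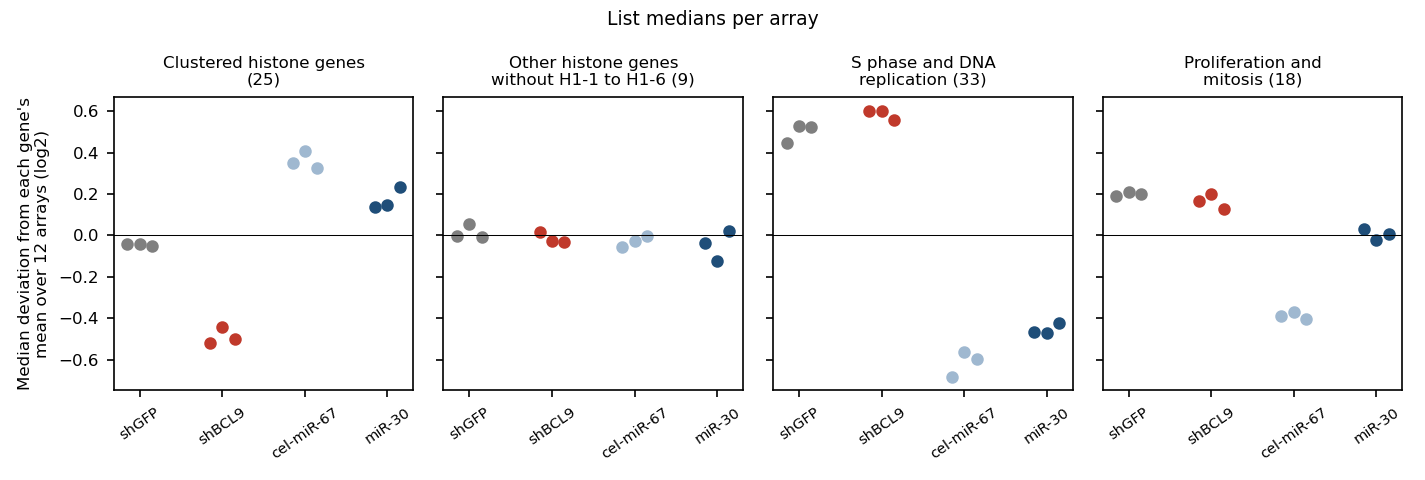
Median over each gene list of the deviation from the gene's own mean over 12 arrays (vertical axis, log2), with a point per array in the 4 groups. The clustered histone genes lie at -0.52 to -0.44 with shBCL9 and 0.33 to 0.41 with cel-miR-67, the 9 other histone genes left without H1-1 to H1-6 within -0.12 to 0.05, and the S phase and mitosis lists are lowest with cel-miR-67.

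By array, the median deviation of the 25 clustered genes from their own means was -0.05 to -0.04 with shGFP, -0.52 to -0.44 with shBCL9, 0.33 to 0.41 with cel-miR-67 and 0.14 to 0.24 with miR-30. These ranges did not overlap between any groups. Over all 39 clustered genes they were -0.06 to -0.02, -0.28 to -0.18, 0.16 to 0.23 and 0.11 to 0.21, so that the transfected groups then overlapped. The median of the 13 other genes lay between -0.03 and 0.06 in every array. It covers dim genes and genes that moved both ways, such as H1-10 at -1.77 and H2AX at 0.88 between the controls. Over the 9 other genes above the 60th percentile, the median difference between the controls was -0.35.

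The control groups differed in the same class. With shGFP, 18 of the 25 clustered genes were lower than with cel-miR-67 and none was higher, where 33.0% of all genes tested were lower and 28.4% higher. Infection with sorting and transfection cannot be told apart here. H2AC6 differed by -1.73 (SE 0.08), H2BC5 by -1.35 and H2BC21 by -0.98. Of the other genes 5 were lower and 3 higher, among them H1-10 at -1.77, H2AJ at -1.05 and H1-2 at -0.78, and H2AX at 0.88, H2BW4P at 0.79 and H3-3A at 0.29. H2AZ2 was lower by 0.54 on its brightest probe set but higher by 0.24 on the mean of its sets. The H3-3A arrays overlapped between the controls. All 8 sets that it shares with H3-3B differed the other way, from -0.87 to -0.098. The ACTB difference was 1.30 ± 0.11 against 2.16 ± 0.09, and with it as a covariate 4 histone genes were called in place of 26, while the calls over all genes tested fell from 9044 to 1658. The shGFP arrays also enter the hairpin comparison and the cel-miR-67 arrays the microRNA comparison, so these values are not independent of the treatment differences above.

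Probe sets bearing on the same genes were read as a check. A further 20 probe sets are annotated to several clustered genes at once and so belong to none of the members. Of these, 17 passed the filter; with shBCL9, 14 were lower and 1 higher with a median of -0.76, where 21.1% of all probe sets tested were lower. With miR-30, 4 were lower and 1 higher with a median of -0.28, where 1.22% of probe sets were lower. A set shared by 10 H3 genes read 6.52 ± 0.11 with shGFP and 4.98 ± 0.19 with shBCL9 (SD, n = 3), a difference of -1.54, larger than that of any H3 gene with a set of its own. The set that was higher in both arms is shared by 14 H4 genes, and it read 12.29 ± 0.08 and 12.51 ± 0.04 in the hairpin arm and 11.995 ± 0.05 and 12.23 ± 0.03 in the microRNA arm. H4 transcripts thus gave differences of both signs, depending on the set.

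**Figure D4:**
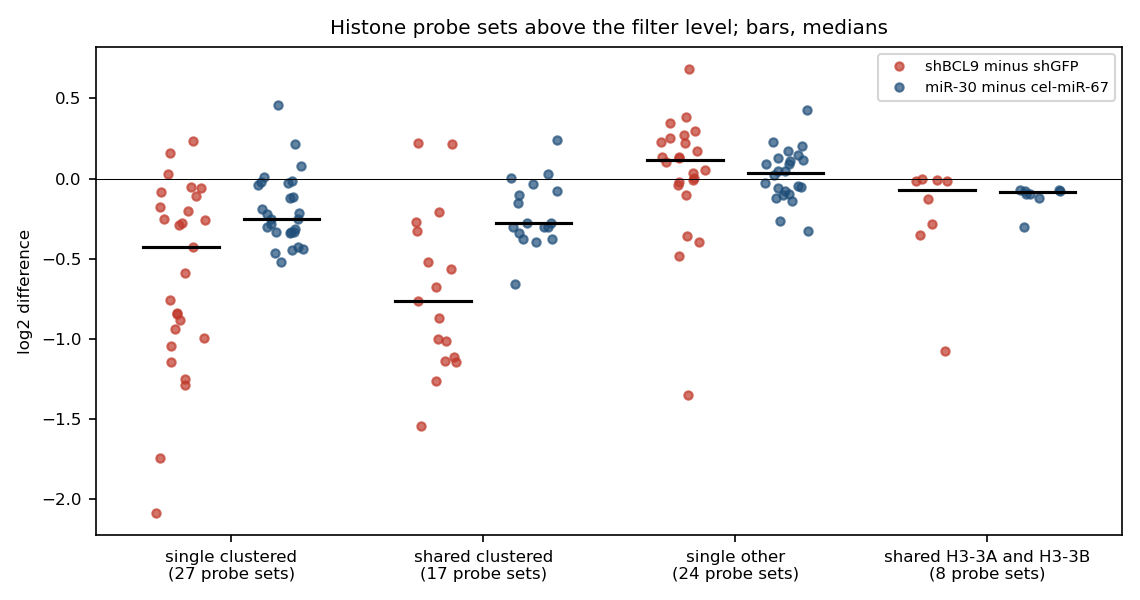
Log2 difference (vertical axis) of every histone probe set above the filter level, by kind of set, in the hairpin arm (red) and the microRNA arm (blue), with bars at the medians. The sets shared by several clustered genes have a median of -0.76 with shBCL9 and -0.28 with miR-30, and of the 8 sets shared by H3-3A and H3-3B 3 are called lower with shBCL9, at -1.08, -0.35 and -0.28.

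Single-gene sets with a plain suffix are designed to match 1 gene. In the hairpin arm 8 of 16 clustered genes read from such a set fell, and 8 of 9 read from a set that can bind paralogs, a contrast that was not tested. The second sets of H2BC5 (-1.04) and H4C8 (-1.25) were lower by a like amount. The 4 sets of H2AX disagreed, running from -0.36 to 0.27 with shBCL9 and from -0.05 to 0.43 with miR-30, and those of H2AZ2 ran from -0.04 to 0.25 and from -0.14 to 0.15. The H2AX sets at -0.36 and at 0.27 were both called with shBCL9. In H2AZ1 they were -0.02 and 0.01 with shBCL9, and in H1-7 they ran from -0.26 to 0.09 with miR-30. Of the 8 sets shared by H3-3A and H3-3B, 3 were lower with shBCL9 and 1 with miR-30, with medians of -0.07 and -0.09. The 3 sets lower with shBCL9 had means of 7.93 to 12.46 with shGFP. The brightest shared sets, with means of 13.20 to 13.84, differed by -0.016 to -0.0047 with shBCL9 and were not called.

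The remaining 21 members lay below the filter in most arrays, with group means of at most 4.91, and were not tested. They are the clustered H2AC16, H2BC1, H2BC13, H2BC14, H2BC17, H3C1, H3C2, H3C7, H3C11, H4C1, H4C4, H4C7, H4C10P and H4C13, and H1-1, H1-5, H1-9P, H1-10-AS1, H2AP, H2BW2 and H3-4. Their differences ran from -0.25 to 0.28 with shBCL9 and from -0.21 to 0.12 with miR-30.

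Companion genes were read against the same shares of all genes tested, 18.7% higher and 22.9% lower with shBCL9 and 2.34% and 2.63% with miR-30. Of 28 genes of histone transcription and 3' end formation, 5 rose and 5 fell with shBCL9 and 2 rose and 1 fell with miR-30, with medians of 0.01 and -0.02, which is near those shares. SLBP, the stem-loop binding protein, differed by 0.08 and -0.06, and neither passed. NPAT, the coactivator of histone gene transcription, fell by 0.29 with shBCL9 and differed by 0.04 with miR-30. HINFP, an activator of H4 genes, fell in both arms, by 0.27 and 0.26. CCNE2, a cyclin that activates NPAT through CDK2, fell by 0.55 with shBCL9 and rose by 0.41 with miR-30. CCNE1, from the same list, fell by 0.23 with shBCL9 and rose by 0.33 with miR-30. TUT7, a terminal uridylyltransferase, fell by 0.51 with shBCL9. UPF1, a helicase of mRNA decay, rose by 0.33 with shBCL9, SNRPB, an Sm protein, by 0.28 and NCBP1, of the cap-binding complex, by 0.21.

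Among 36 histone chaperone and deposition genes, 10 rose and 7 fell with shBCL9, and 4 rose and 1 fell with miR-30, so the lower counts are near the shares over all genes. HIRA, which deposits H3.3, fell by 0.84 with shBCL9, and its partner UBN2 fell by 0.67. ASF1B, an H3 and H4 chaperone, rose by 0.40 with shBCL9. CHAF1A, a subunit of the chaperone that places new H3 and H4 on replicated DNA, rose by 0.17 with shBCL9 and by 0.20 with miR-30. Of histone variants outside the symbol rule, MACROH2A1 rose by 0.52 with shBCL9, and CENPA, the centromeric H3, differed by 0.20 (not called) with shBCL9 and rose by 0.52 with miR-30. Of 14 genes of ordinary polyadenylation, 1 rose and 5 fell with shBCL9, and 1 fell with miR-30.

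Genes of S phase and mitosis moved opposite to the clustered histones in the microRNA arm. Of 33 S phase genes, 11 rose and 2 fell with shBCL9 (median 0.11), and 16 rose and none fell with miR-30 (median 0.21). Of 18 genes of proliferation and mitosis, 5 rose and 3 fell with shBCL9 (median 0.02), and 17 rose and none fell with miR-30 (median 0.45). MKI67 differed by -0.18 with shBCL9, which did not pass, and rose by 0.52 with miR-30. PCNA, the sliding clamp of replication, was called in neither arm. Between the control groups 32 of the 33 S phase genes were higher with shGFP (median 1.12), where the clustered histone median was -0.34.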

How the data were processed

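Per the labels' protocols, total RNA from Trizol was labelled by a kit that transcribes in vitro from the 3' end, and the arrays hold 54675 probe sets. The authors deposited log2 intensities. RMA and affy are the tools that the submitters' processing notes name, with versions not given in the sources used here. No further normalization was applied. The number of arrays limits the precision. Names come from the platform annotation given for these arrays: 41097 had 1 symbol, 1801 had several, and only the former stand for genes.

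Group means over the 12 arrays were fitted with limma 3.58.1 (lmFit and eBayes, R 4.3.3) over 14725 genes, with Benjamini-Hochberg adjustment over all of them, and every adjusted p is limma's. Probe sets were fitted in the same way. RNA measures were compared by exact permutation tests over arrays. The code was tested on simulated data. Promoter sequences are RefSeq's for GRCh38.p14. Python 3.11.15 and matplotlib 3.10.9 drew the figures.

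The members and lists were chosen with earlier results of these data known. Named are the members called in any test, the brightest members, all unclustered members and members whose probe sets disagree. From the companion lists SLBP, NPAT, CENPA, MACROH2A1, MKI67 and PCNA are always named. Only some of the other called genes of these lists are named, without a fixed rule. The alternatives were other filters, probe set rules, normalizations, variance models and thresholds, array weights, RNA covariates, a replicate block and each array left out. The labels number the arrays of each group 1 to 3, and same-numbered arrays correlated in their deviations by 0.05 to 0.10 in the hairpin arm and 0.09 to 0.23 in the microRNA arm, so the numbers were not taken as pairs.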

Additional observations from a re-analysis of the deposited data

Results flagged for a closer look

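The following histone genes had a miR-30 effect that differed from the shBCL9 effect in limma's test of that difference, each given with its difference (miR-30 effect minus shBCL9 effect, log2) and adjusted p. No cause of these differences was tested, and infection with sorting against transfection differs between the arms as well.

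Among genes lower in the hairpin arm, the difference was 1.90 for H2AC6 (adjusted p = 2.29e-07), 1.43 for H2BC21 (9.21e-07), 1.02 for H1-2 (8.03e-06) and 0.86 for H2BC5 (3.53e-05). It was 0.66 for H2AC8 (0.00147), 0.62 for H4C8 (0.00505), 0.60 for H2BC12L (0.000138) and 0.54 for H2BC12 (0.000211). It was 0.50 for H2AC17 (0.0167), 0.50 for H2BC6 (0.00197), 0.44 for H2BC9 (0.00633) and 0.59 for the pseudogene H2BW4P (0.00684). All of these except H2BW4P had a negative difference in both arms, and the size was larger with shBCL9.

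H2AX, which rose with miR-30 and was not called with shBCL9, differed by 0.44 (0.00158). H2BC11 differed by 0.66 (0.00253), but it passed the filter through its miR-30 arrays alone, so this is a description. H1-10, H2AJ and H1-8, which rose with shBCL9 and were not called with miR-30, differed by -0.51 (0.000802), -0.47 (0.00181) and -0.36 (0.0432). The call of H1-8 was lost under 16 of the alternatives tried.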

How the results depend on the processing

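The counts of called histone genes were 23 with shBCL9, 12 with miR-30, 26 between the controls and 17 between the arms. The number of arrays limits the precision, and dim members near background compress any difference. Leaving out each array in turn gave 21 to 25, 7 to 13, 22 to 27 and 15 to 18. The clustered medians then ran from -0.44 to -0.26, -0.25 to -0.19 and -0.38 to -0.31 in the first 3 comparisons, and those of the other genes from -0.039 to 0.023, -0.033 to 0.0090 and -0.040 to 0.030. With a replicate block the counts were 24, 12, 26 and 16, and the clustered medians stayed at -0.29, -0.22 and -0.34; the numbers are not shown to pair the arrays. Of the called genes, 19 of 23, 6 of 12, 21 of 26 and 16 of 17 stayed called in every fit without an array.

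With plain probe sets only, the counts were 13, 6, 15 and 8, where fewer genes enter (25 histone genes tested), the clustered medians -0.23 with shBCL9 and -0.27 between the controls, and the other medians 0.036 with shBCL9 and 0.021 with miR-30. At an adjusted p under 0.01 the miR-30 count was 6. With 18S as a covariate the counts were 0, 1 and 0 with shBCL9, with miR-30 and between the arms (8, 16 and 6 at an unadjusted p under 0.05 in limma). The clustered medians were then -0.77 with shBCL9 and -0.37 between the controls, and the other medians -0.11 with shBCL9 and -0.099 with miR-30. With the ACTB covariate the counts were 4 between the controls and 11 between the arms, the clustered medians -0.47 with shBCL9 and -0.29 between the controls, and the other median -0.059 between the controls. With the poly-A spike-ins the shBCL9 count was 14, and the other medians -0.043 with shBCL9 and -0.048 between the controls.

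Without a filter, which takes in all members, the clustered medians were -0.12, -0.12 and -0.25, and the other median with shBCL9 was 0.046. Above the 60th percentile the clustered medians were -0.86, -0.31 and -0.61, and the other medians 0.021 with miR-30 and -0.35 between the controls. Averaging each gene's probe sets, the clustered median with shBCL9 was -0.35, and the other medians 0.086 with shBCL9 and 0.073 between the controls. Further quantile normalization gave a clustered median of -0.33 with shBCL9, and arrays centred on their medians gave -0.32, with -0.041 for the other genes. Protein-coding members only, a choice made after seeing the data, gave -0.36 for the clustered and 0.021 for the other genes without H1-1 to H1-6. With H1-1 to H1-6 counted among the clustered genes the other median between the controls was 0.073.

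Signs reversed for H2AZ2 between the controls, at 0.24 with the mean of its probe sets and 0.75 with plain sets. With the ACTB covariate they reversed between the controls for H2AC15 (0.34), H2AC4 (0.089) and H2BC4 (0.12). With 18S as a covariate they reversed with shBCL9 for H1-8 (-0.11), H2AC17 (0.11), H2AC4 (-0.77), H2BC3 (0.68), H3C8 (0.0040) and H4C11 (0.53), and between the arms for H2AC17 (-0.22). None of these covariate values was called, and the cause was not tested.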

Other observations

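Outside the histone symbols, 5 genes followed the mean of the 25 clustered members that passed the filter most closely over the 12 arrays, which fall into 4 groups. GSTO2, a glutathione transferase, had a Pearson r of 0.998, and the others, LGALS3 (the lectin galectin-3), TMEM230, CDIPT (which makes phosphatidylinositol) and COA5 (an assembly factor of cytochrome oxidase), had one of at least 0.994. GSTO2 read 7.08 ± 0.01 with shGFP, 6.19 ± 0.05 with shBCL9, 7.94 ± 0.04 with cel-miR-67 and 7.59 ± 0.06 with miR-30 (SD, n = 3). LGALS3 read 11.16 ± 0.04, 10.46 ± 0.07, 11.85 ± 0.03 and 11.66 ± 0.10 in the same order. The points share arrays and group differences, so this is a description of these arrays.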
